A study of Mus musculus with 18 samples.

Results

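Immediate early genes were followed in 18 expression arrays of mouse hypothalamus. The set comprised 10 listed genes out of 19937 measured: Fos, Fosb, Junb, Egr1, Egr2, Arc, Npas4, Nr4a1, Dusp1 and Ier2. Each was read by the brightest probeset that the platform annotation pairs with that gene alone, and all 10 had 1 such probeset. The genes were listed by name, with earlier results of these data known.

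Immediate early genes are transcribed within minutes of a stimulus, from transcription factors already present in the cell, such as CREB and the serum response factor with its partners, which kinases activate. Many of their products are themselves transcription factors, and others are enzymes and synaptic proteins that feed back on the signal. In the hypothalamus their RNA and protein are used as markers of neurons that were recently active, for example after osmotic challenge, stress, feeding or light.

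The mice were wild type or mutant for Wfs1, which encodes wolframin, a protein of the endoplasmic reticulum membrane. The series text gives their background as 129S6, the sample labels as 129SV. Hypothalami were dissected and frozen. Age, the design of the allele and any treatment were not known here, and sex only as far as Xist shows it below. Genotype was labelled in a pair of places, by the ending of the sample title (10 ko, 8 wt) and by a genotype field (9 KO, 9 WT). They gave the same genotype on 9 arrays, 5 ko/KO and 4 wt/WT, and opposite genotypes on the other 9, 5 ko/WT and 4 wt/KO, with the ending written first. In the order of listing, every KO in the field was followed by a WT, and no array broke this turn-taking. Whether the field records the animals or only that order could not be checked. The number just before the ending was lower on every ko title than on any wt title, and its meaning is not given. A difference by ending therefore cannot be separated from a difference between blocks of that number. The Wfs1 level followed neither label, so neither was taken as the true genotype. Whether the values of each array belong to the title they are filed under could not be checked, so array names and both labels are those under which the values are filed. Whether the arrays come from separate animals is not stated, so the p-values reflect the spread from array to array, which may be partly technical.

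Array medians lay between 7.10 and 7.19 log2 units. Of 14 measured hypothalamic markers 10 were above every array's median on all 18 arrays, among them Pmch at 11.36 to 12.10 and Oxt at 10.02 to 11.15. So were 9 of 10 measured thalamic markers and 7 of 7 striatal markers. How much neighbouring tissue the samples held was not tested. A pair of arrays stood apart. Ttr, made by the choroid plexus, was 12.80 on wt/WT 3 and 8.01 to 10.62 on the other 17, and Xist, transcribed from the inactive X chromosome, was 5.93 on ko/WT 4 and 10.31 to 10.79 on the other 17. By Xist, ko/WT 4 thus differed from the other 17 in apparent sex, which was not checked with other genes. Calls that change without these arrays are given with and without them.

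Levels of the early genes differed between arrays within every label class. Fos, which encodes a subunit of the dimeric factor AP-1, spanned 1.04 log2 units from 7.27 to 8.31, a 2.06-fold range, and its SD over 18 arrays of 0.32 was larger than that of 98.8% of all genes. On the ko/KO arrays 1 to 5 Fos was 8.23, 7.83, 7.49, 8.22 and 7.87, and on the wt/WT arrays 1 to 4 it was 7.83, 7.95, 7.27 and 8.13. On the ko/WT arrays 1 to 5 it was 7.56, 7.37, 7.89, 8.09 and 7.98, and on the wt/KO arrays 1 to 4 it was 7.30, 7.61, 8.31 and 7.84. Each of the 4 classes held arrays both below 7.7 and above 7.8, and the classes overlapped. The lowest array was wt/WT 3, the array with high Ttr, and the highest was wt/KO 3.

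Egr1, a zinc finger transcription factor also called Zif268, ranged from 7.36 to 8.15. Its levels were 8.07, 7.73, 7.54, 7.91 and 7.65 on ko/KO 1 to 5, and 7.92, 7.78, 7.47 and 7.81 on wt/WT 1 to 4. They were 7.47, 7.59, 7.73, 7.85 and 7.88 on ko/WT 1 to 5, and 7.36, 7.44, 8.15 and 7.64 on wt/KO 1 to 4. Egr1 was highest on wt/KO 3 and next highest on ko/KO 1, the arrays that were also highest and next highest for Fos, and the classes overlapped.

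Nr4a1, an orphan nuclear receptor, was 8.71, 8.0, 8.02, 8.66 and 8.33 on ko/KO 1 to 5, and 8.51, 8.46, 8.19 and 8.69 on wt/WT 1 to 4. It was 8.28, 8.13, 8.30, 8.55 and 8.53 on ko/WT 1 to 5, and 8.04, 8.18, 8.90 and 8.17 on wt/KO 1 to 4. The array wt/KO 3 was again the highest. Dusp1, a phosphatase that inactivates mitogen-activated protein kinases and so limits the signal that induces early genes, was 9.89, 9.11, 9.24, 9.61 and 9.39 on ko/KO 1 to 5, and 9.42, 9.38, 9.04 and 9.45 on wt/WT 1 to 4. It was 9.24, 8.85, 9.36, 9.67 and 9.63 on ko/WT 1 to 5, and 8.85, 9.01, 9.71 and 9.12 on wt/KO 1 to 4. Its spread of 1.04 log2 units equalled that of Fos, and it was lowest on wt/KO 1 and ko/WT 2, which with wt/WT 3 were also the lowest for Fos.

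The other members varied less, apart from Npas4. Npas4, a neuronal transcription factor induced by calcium influx, ran from 6.63 on wt/WT 3 to 7.61 on ko/KO 1, with an SD of 0.23 that exceeded that of 92.5% of genes. Fosb, another AP-1 subunit, ran from 6.84 to 7.59, and Junb, an AP-1 partner of the Fos proteins, from 6.89 to 7.65. Arc, a synaptic protein that promotes the removal of glutamate receptors from the membrane, spanned 0.50 log2 units from 7.50 to 8.0, with an SD larger than that of 45.7% of genes. Egr2 and Ier2, a zinc finger factor and a nuclear protein, were below the array median on all 18 arrays, at 6.40 to 6.75 and 6.35 to 6.86. Npas4 was below it on 12 of the 18, Junb on 8 and Fosb on 1. Egr2 had the smallest spread, with an SD larger than that of 21.2% of genes. In whole tissue, fewer cells with a transcript and less transcript per cell cannot be told apart.

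**Figure D1:**
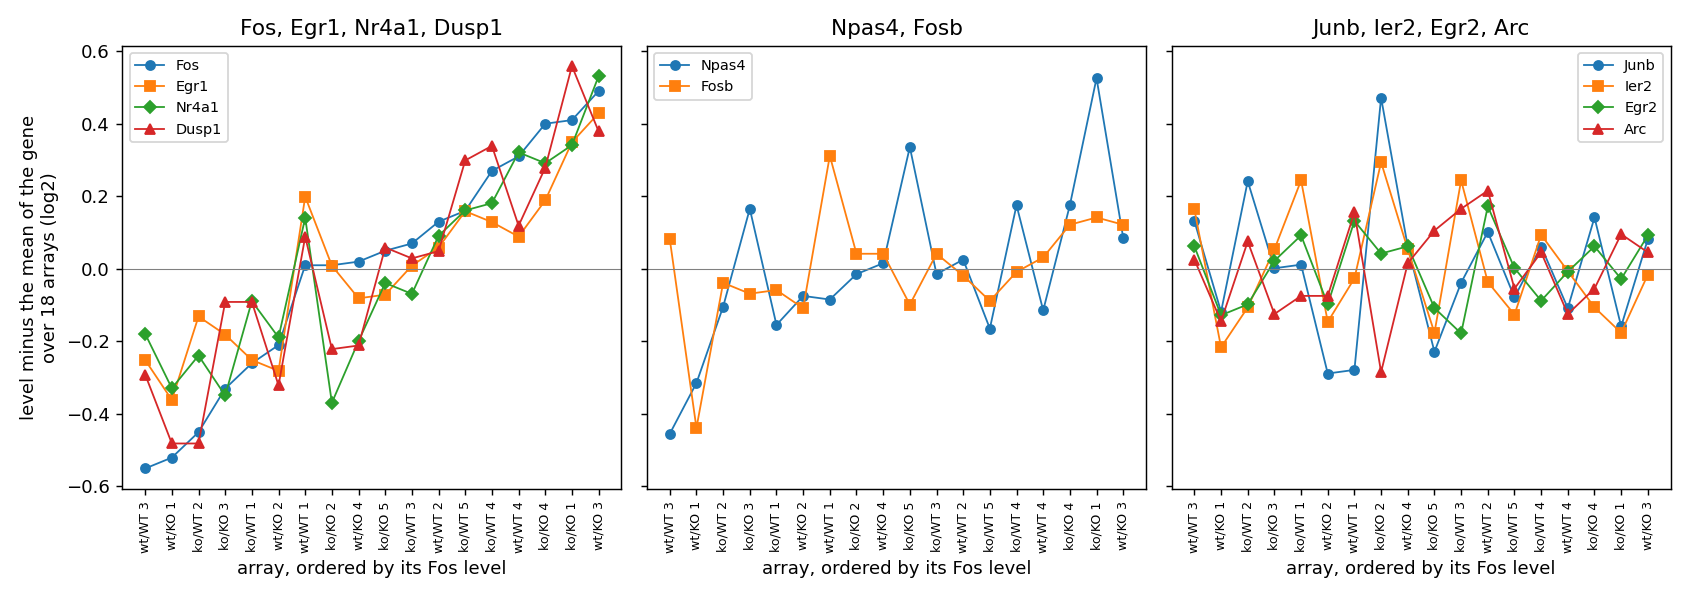
Level of each gene minus its own mean over 18 arrays (y axis, log2) on each array (x axis, ordered by Fos). Points are single arrays, and the lines only join them. Fos, Egr1, Nr4a1 and Dusp1 climb together from left to right, Npas4 and Fosb do so partly, and Junb, Ier2, Egr2 and Arc show no such order.

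Fos, Egr1, Nr4a1 and Dusp1 moved together from array to array. Over 18 arrays Fos correlated with Egr1 at r = 0.90 and rho = 0.86 (permutation adjusted p = 0.000225 and 0.00018), with Dusp1 at r = 0.88 and rho = 0.90 (permutation adjusted p = 0.000225 and 0.000112) and with Nr4a1 at r = 0.84 and rho = 0.86 (permutation adjusted p = 0.0003 and 0.000112). The other pairs of the 4 genes were as close, Egr1 with Dusp1 at r = 0.87, Egr1 with Nr4a1 at r = 0.86 and Nr4a1 with Dusp1 at r = 0.87. In all, 45 pairs were computed, with two-sided permutation tests of 100000 resamples adjusted over the 45. The unadjusted p for Fos and Egr1, 1e-05, is the smallest such a test can give. The grouping of these 4 genes was made after their correlations were seen.

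The correlations of the 4 genes were similar in subsets of the arrays. Without the 2 arrays farthest from the median of the gene on the x axis, r over the 6 pairs was 0.79 to 0.86. It was 0.80 to 0.90 within the 10 arrays with the ending ko and 0.89 to 0.98 within the 8 with the ending wt. Within field KO it was 0.88 to 0.95 and within field WT 0.78 to 0.90. After the means of the 4 label classes were subtracted it was 0.87 to 0.93, and after the SD of each array was regressed out, 0.85 to 0.89.

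**Figure D2:**
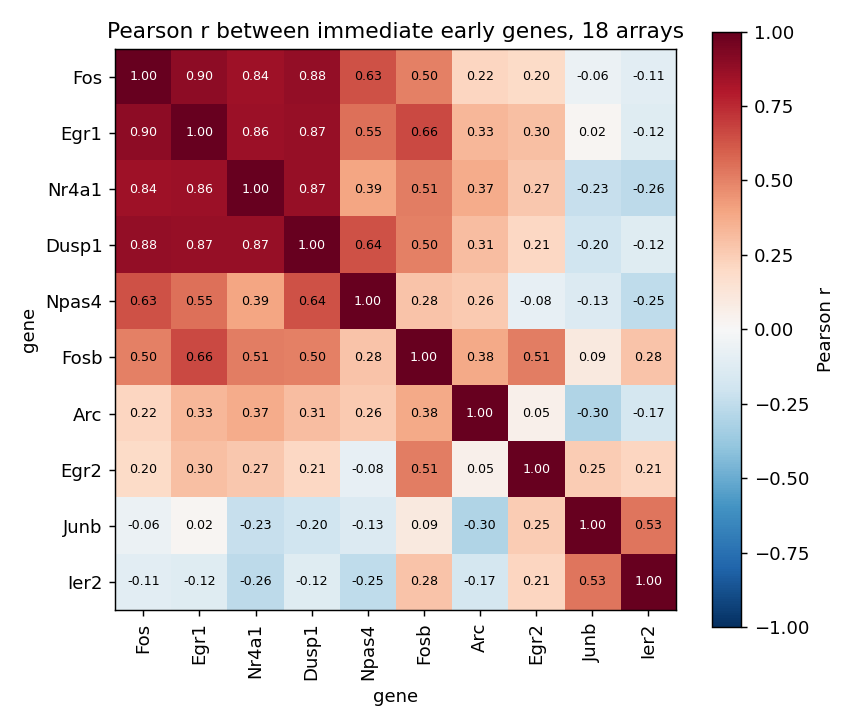
Pearson r over 18 arrays for each pair of the 10 immediate early genes (both axes: genes; colour and number: r). The 6 pairs of Fos, Egr1, Nr4a1 and Dusp1 lie between 0.84 and 0.90, and the pairs of Junb and Ier2 with these 4 between -0.26 and 0.02.

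Set against the whole array, the partners of Fos called on all 18 arrays were other early genes. When each of the other 19936 genes was fitted on the Fos level with limma, 4 passed an adjusted p of 0.05, all with a positive slope, which is 0.0201% of genes tested. They were Egr1, Dusp1, Nr4a1 and Btg2, in that order of r, and 3 of the 4 are members. Per log2 unit of Fos, Egr1 rose by 0.61 (SE 0.081, limma adjusted p = 0.00172), Dusp1 by 0.82 (SE 0.11, adjusted p = 0.00172) and Nr4a1 by 0.70 (SE 0.11, adjusted p = 0.0103). Btg2, an antiproliferative gene that is itself induced as an early response, rose by 0.66 (SE 0.11, adjusted p = 0.0208) and ran from 6.80 to 7.77. Next by r was the microRNA gene Mir384, at r = 0.79 (adjusted p = 0.0619). The Btg2 call was lost in 5 of the 18 fits that left out 1 array. These were the fits without ko/KO 1, ko/KO 4, ko/WT 2, wt/KO 3 or wt/WT 3 (adjusted p = 0.0917, 0.0586, 0.0676, 0.0951 and 0.0894). It was also lost without both wt/WT 3 and ko/WT 4 (adjusted p = 0.189). Over the 18 fits the count of all genes called ran from 2 to 5. Without ko/KO 4 it was 5, with 3 members and without Btg2, so genes outside these early genes were then called.

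The same genes appeared when another of the 4 was taken as the axis. On the Egr1 level 3 genes passed, all with a positive slope (0.015%), namely Fos, Dusp1 and Nr4a1. On the Nr4a1 level the 3 that passed (0.015%) were Dusp1, Egr1 and Fos. On the Dusp1 level 4 passed with a positive slope (0.0201%), Fos, Egr1, Nr4a1 and Btg2, and 1 with a negative slope (0.00502%), the chemokine gene Cxcl2 at r = -0.81 (limma adjusted p = 0.0224), named because it was the only one. Btg2 missed the threshold on the Dusp1 level without ko/WT 2 (adjusted p = 0.066), after quantile normalization (adjusted p = 0.0553) and without both wt/WT 3 and ko/WT 4 (adjusted p = 0.0523). Without wt/WT 3, ko/WT 4 or ko/WT 5 the 4 genes called on that level were the other 3 members and Btg2, so that Cxcl2 was not among them. These fits were chosen after the correlations were seen and share their arrays, so they are not independent of each other or of the pairs. Leaving out wt/KO 3, the array highest in Fos, Egr1 and Nr4a1, left 2 members called on the Fos level, 2 on the Egr1 level and 1 on the Nr4a1 level. Leaving out ko/KO 1 left 2 on the Nr4a1 level, as did leaving out both wt/WT 3 and ko/WT 4. On the Dusp1 level 3 members were called without any 1 array, while the count of all genes called rose from 5 to 14 without wt/KO 1 and to 8 without wt/KO 2. On the Nr4a1 level it rose from 3 to 5 without wt/WT 2.

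**Figure D3:**
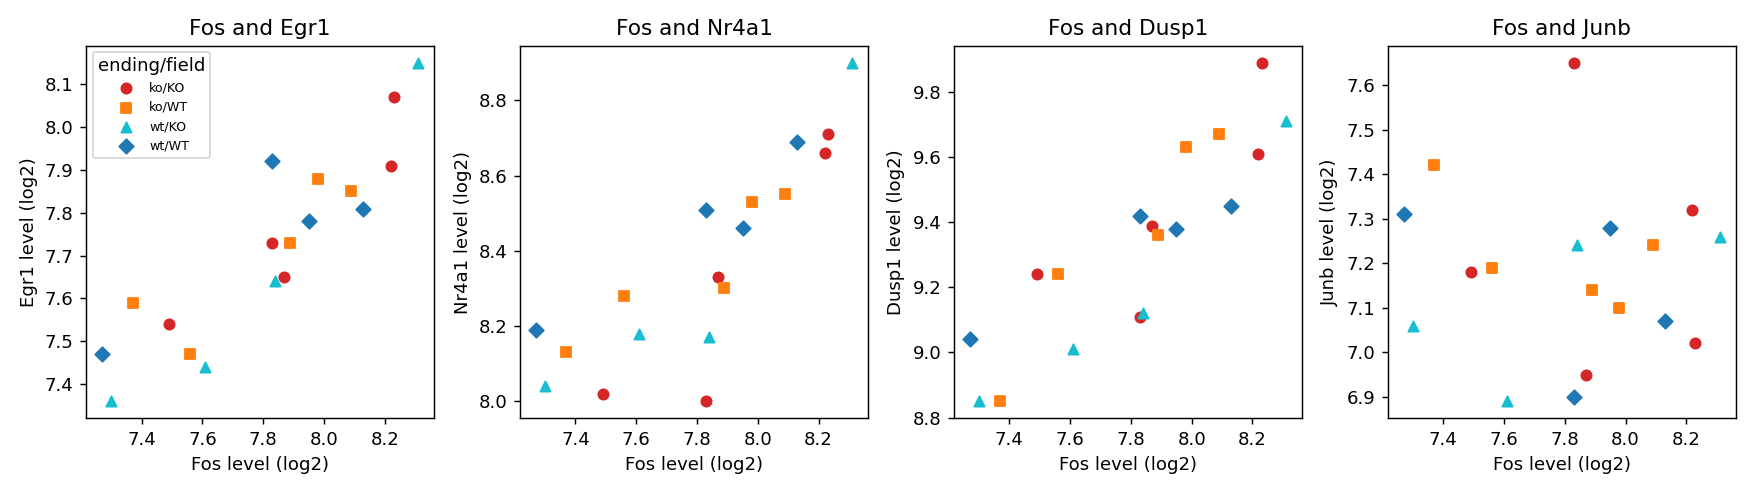
Level of Egr1, Nr4a1, Dusp1 and Junb (y axes, log2) against that of Fos (x axis, log2), 1 point per array, with symbols for the 4 label classes. Egr1, Nr4a1 and Dusp1 follow Fos with r from 0.84 to 0.90 and the classes are interleaved along each trend, while Junb has r = -0.06.

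Npas4 and Fosb followed the 4 genes in part. Npas4 correlated with Dusp1 at r = 0.64 and rho = 0.54 (permutation adjusted p = 0.0204 and 0.115) and with Fos at r = 0.63 and rho = 0.58 (permutation adjusted p = 0.0207 and 0.0667), so neither passed by rank. Without the 2 farthest arrays they were 0.47 and 0.42. The Fos relation missed the threshold without ko/KO 1, wt/KO 1 or wt/WT 3 (adjusted p = 0.0759, 0.0718 and 0.094), and at r = 0.52 without both wt/WT 3 and ko/WT 4 (adjusted p = 0.139). The relation with Dusp1 missed it without ko/KO 1 or wt/KO 1 (adjusted p = 0.151 and 0.0718), and without both wt/WT 3 and ko/WT 4 (adjusted p = 0.0669). Fosb correlated with Egr1 at r = 0.66 and rho = 0.67 (permutation adjusted p = 0.0112 and 0.0201), and at r = 0.58 without wt/KO 1, where Fosb was lowest (adjusted p = 0.0718). With Fos, Nr4a1 and Dusp1 its r of 0.50 to 0.51 had an adjusted p of 0.0875. Within field KO Fosb had r of 0.63 to 0.87 with the 4 genes and within field WT -0.02 to 0.29, a difference that was not tested. Other splits showed little contrast for Fosb. It had 0.43 to 0.68 with the ending ko and 0.50 to 0.69 with the ending wt. On the arrays of low Wfs1 it had 0.50 to 0.75 and on those of high Wfs1 0.49 to 0.74. Fitted as axes, Fosb and Npas4 called 0 of 19936 genes each (0%) with limma, with 1989 (9.98%) and 1504 (7.54%) at an unadjusted p under 0.05, 5 and 3 of the 9 other members among them.

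Junb, Ier2, Egr2 and Arc had no correlation with the 4 genes that passed the threshold. Junb had r between -0.23 and 0.02 with the 4 genes and Ier2 between -0.26 and -0.11. Egr2 had r of 0.20 to 0.30 and Arc of 0.22 to 0.37, and 0 of these 16 pairs passed the threshold. These values differed between subsets of the arrays. Junb had r of -0.65 to -0.54 with the 4 genes within field WT and -0.09 to 0.29 within field KO, and -0.69 to -0.38 on the 8 arrays of high Wfs1 against 0.11 to 0.18 on the 10 of low Wfs1. Arc had -0.24 to 0.21 within field WT and 0.46 to 0.67 within field KO, and Egr2 -0.08 to 0.03 with the ending ko and 0.48 to 0.68 with the ending wt. For Ier2 the values were -0.52 to -0.28 with the ending ko and 0.10 to 0.27 with the ending wt. With 8 to 10 arrays in a subset these are descriptions, and the differences between subsets were not tested. The splits given for each gene are those with the widest contrast, and others differed less. Arc had 0.18 to 0.44 with the ending ko and 0.29 to 0.50 with the ending wt. Egr2 had 0.20 to 0.50 with low and 0.17 to 0.36 with high Wfs1. Junb and Ier2, both on chromosome 8, were closest to each other, at r = 0.53 and rho = 0.50 (permutation adjusted p = 0.0875 and 0.171), with 0.29 after the 2 farthest arrays were left out. Both were high on ko/KO 2, at 7.65 and 6.86. Over all 45 pairs the median r was 0.28, 33 were positive and 9 passed.

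More genes had an unadjusted p under 0.05 with Junb and Ier2 than with the 4 genes. At an unadjusted p under 0.05, 22.4% of all genes varied with the Junb level and 26.2% with the Ier2 level, against 4.99% with Fos, 3.18% with Egr1, 6.31% with Nr4a1 and 9.75% with Dusp1. For Egr2 the share was 18.8% and for Arc 3.57%. Past an adjusted p of 0.05 limma called 11 genes with Junb, 6 positive (0.0301%) and 5 negative (0.0251%), and 83 with Ier2, 49 positive (0.246%) and 34 negative (0.171%), with 0 members in either. With Egr2 and Arc it called 0 (0%), and with Egr2 3 without ko/WT 2 or ko/WT 3. At an unadjusted p under 0.05, 1 other member varied with Junb, 1 with Ier2, 1 with Egr2 and 0 with Arc. The counts changed widely when single arrays were left out. With Junb, leaving out 1 array gave from 0 genes called, without ko/KO 2, to 2784, without wt/WT 1, and 539 without ko/KO 4. With Ier2 it gave 0 in 6 of 18 fits, without ko/KO 1, 2, 3 or 4, ko/WT 5 or wt/WT 3, and at most 1487, without ko/WT 3. The Ier2 count was 187 without ko/WT 4 and 0 without both wt/WT 3 and ko/WT 4, and the Junb count was 7 without wt/WT 3, 14 without ko/WT 4 and 2 without both. After quantile normalization 1 gene was called with Ier2 and 3 with Junb, while the members called with Fos, Egr1, Nr4a1 and Dusp1 were again 3 each.

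Measures of the array as a whole, and markers of other cells, were set beside these levels. The array median correlated with Ier2 at r = 0.56, with Egr2 at 0.40 and with Junb at 0.37, and with Fos, Egr1, Nr4a1 and Dusp1 at -0.03, 0.02, -0.13 and -0.16. The SD of all values on an array had r = -0.58 with Egr2 and -0.50 with Fosb, and from -0.27 to -0.05 with the 4 genes. Mean levels of 7 measured pituitary markers, which ran from 6.04 to 6.37 over the arrays, had r = 0.61 with Ier2 and 0.54 with Junb. Only 1 of these 7 markers was above the array median on every array, so their mean is mostly low signal. Those of 7 astrocyte markers, from 10.04 to 10.39, had r = -0.50 with Junb, -0.46 with Ier2 and 0.47 with Dusp1. Those of 7 endothelial markers, from 7.88 to 8.21, had r = -0.51 with Junb and -0.47 with Egr2. The mean of 14 hypothalamic markers, from 8.56 to 8.96, had r = -0.51 with Dusp1, -0.41 with Nr4a1 and -0.40 with Fos. The mean of 9 choroid plexus markers, from 6.77 to 7.82, had r = -0.50 with Npas4, and 2 of the 9 were above the array median on every array. The marker values given are among the largest in size over all marker lists and members, and others of similar size were left out. These are descriptions over 18 arrays, and the part of these measures in the early gene levels was not tested.

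Regulatory sequence just upstream is shown for Fos, Dusp1 and Nr4a1, which moved together, and for Btg2, which was called with Fos and Dusp1. Junb, which was not, is shown beside them. The RefSeq promoter table (build GRCm38.p6, 250 bases before to 50 after each start) held 7 of the 10 members, Fos, Fosb, Junb, Egr2, Npas4, Nr4a1 and Dusp1. Egr1, which also moved with Fos, was not among them. Capitals mark TGACGT on either strand, a part of TGACGTCA, the full cyclic AMP response element that CREB binds. Shorter parts of it were not marked or counted. The windows are chr12:85473640-85473939 (plus strand) for Fos, chr17:26508423-26508722 (minus strand) for Dusp1, chr15:101266596-101266895 (plus strand) for Nr4a1, chr1:134079106-134079405 (minus strand) for Btg2 and chr8:84978699-84978998 (minus strand) for Junb, written 5′ to 3′ along the gene.
Fos: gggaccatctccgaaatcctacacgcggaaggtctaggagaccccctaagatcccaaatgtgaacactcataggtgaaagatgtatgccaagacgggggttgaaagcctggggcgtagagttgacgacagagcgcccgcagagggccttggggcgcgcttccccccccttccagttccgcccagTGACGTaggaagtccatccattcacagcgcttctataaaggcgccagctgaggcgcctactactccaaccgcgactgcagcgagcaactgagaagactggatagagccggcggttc
Dusp1: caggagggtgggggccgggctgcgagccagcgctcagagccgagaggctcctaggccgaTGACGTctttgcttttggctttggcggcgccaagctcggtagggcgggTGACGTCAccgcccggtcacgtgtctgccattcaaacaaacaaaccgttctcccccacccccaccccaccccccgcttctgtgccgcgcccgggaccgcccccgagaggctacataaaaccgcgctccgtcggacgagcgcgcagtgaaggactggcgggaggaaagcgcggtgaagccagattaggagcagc
Nr4a1: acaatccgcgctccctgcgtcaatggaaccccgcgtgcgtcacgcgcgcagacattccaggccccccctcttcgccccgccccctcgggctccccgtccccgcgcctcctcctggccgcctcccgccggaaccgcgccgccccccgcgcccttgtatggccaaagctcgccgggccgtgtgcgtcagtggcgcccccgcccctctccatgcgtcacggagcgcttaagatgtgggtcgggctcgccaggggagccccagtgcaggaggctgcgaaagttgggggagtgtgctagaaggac
Btg2: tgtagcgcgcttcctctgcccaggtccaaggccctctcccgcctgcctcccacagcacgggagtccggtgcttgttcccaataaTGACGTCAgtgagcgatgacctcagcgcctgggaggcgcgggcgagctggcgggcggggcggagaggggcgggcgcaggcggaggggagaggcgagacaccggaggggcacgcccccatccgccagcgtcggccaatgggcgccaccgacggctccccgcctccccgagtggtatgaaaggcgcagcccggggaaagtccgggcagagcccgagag
Junb: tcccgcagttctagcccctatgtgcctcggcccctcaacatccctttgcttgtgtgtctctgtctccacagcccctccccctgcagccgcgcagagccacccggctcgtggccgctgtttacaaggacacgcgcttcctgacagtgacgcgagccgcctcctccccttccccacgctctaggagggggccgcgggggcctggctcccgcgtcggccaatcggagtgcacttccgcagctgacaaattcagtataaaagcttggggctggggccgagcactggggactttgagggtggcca

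The Fos window held TGACGT once, from 66 to 61 bases before the start. The Dusp1 window held it at 3 places, of which a pair overlap in the full palindrome TGACGTCA, 143 to 136 bases before the start. The Btg2 window held the palindrome, 166 to 159 bases before the start. The windows of Nr4a1 and Junb held neither TGACGT nor the palindrome. Both do hold the shorter TGACG or its reverse complement CGTCA, which was not counted. Of the 7 members 4 had TGACGT in a window (Fos, Dusp1, Npas4 and Egr2) and 1 had TGACGTCA. Egr2 thus had it, at r of 0.20 to 0.30 with Fos, Egr1, Nr4a1 and Dusp1, while Nr4a1, which moved with Fos, did not. Any link between these matches and the correlations was not tested. Members were counted by gene over all their windows, and Egr2 had 5. Of 32817 promoter windows of this length 7.51% held TGACGT on either strand and 1.79% TGACGTCA, whose matches are also counted in the first. Counted by gene like the members, the shares were 8.36% and 2.03% of 26994 genes. The CArG box, the site of the serum response factor, was found in 1.63% of windows, in 1.81% of genes and in 1 of the 7 members, Egr2. These are matches of letters in a short window.

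A wider set of early response genes was set against Fos. Genes were named from each list for the highest and lowest mean r with the 10 members. Fos is 1 of the 10, so the r of a named gene with Fos follows in part from that choice. Of 20 measured feedback regulators 1 passed an adjusted p of 0.05 with Fos (Btg2), 8 had a positive and 1 a negative slope at an unadjusted p under 0.05, and the median r was 0.23. Among all genes these shares were 2.27% and 2.72%, and the median r was -0.03. The 4 named for a high mean r with the members were Btg2, at r = 0.83 with Fos, Sik1, a kinase that restrains the coactivators of CREB, at 0.65, Dusp6, a phosphatase of the kinase ERK, at 0.61 and Trib1, a pseudokinase, at 0.56, the last 3 each with a limma adjusted p of 0.903. Sik1 ranked 28 and Dusp6 49 of 19936 genes by r with Fos. Named for a low mean r, Ier5 had r = -0.50 and Ier3, a survival factor, -0.33.

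Of 20 measured neuronal effectors 0 passed, 3 had a positive and 0 a negative slope at an unadjusted p under 0.05, and the median r with Fos was 0.14. Tiparp, a poly-ADP-ribose polymerase, had r = 0.61, Gpr3, a receptor that raises cyclic AMP, 0.52, Sgk1, a kinase induced by glucocorticoids, 0.52 and Gem, a small GTPase, 0.44. The secreted granin genes Scg2 and Vgf had r = 0.08 and -0.23. Of 13 factors of the EGR, NR4A, KLF and other families 2 had an unadjusted p under 0.05, both positive, and the median r was -0.12. They were Nr4a3, a nuclear receptor of the Nr4a1 family that ran from 6.73 to 7.62, at r = 0.53, and Klf6, a zinc finger factor, also at 0.53. Nr4a2, of the same family as Nr4a1, had 0.39 and Klf2 0.18, while Bhlhe40 and Hes1, both transcriptional repressors, had -0.12 and -0.34.

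Of 11 AP-1 and other bZIP factors 0 reached an unadjusted p under 0.05 with Fos, and the median r was -0.07. Jun, the main AP-1 partner of Fos, had r = 0.35 over a range of 8.56 to 9.14, Cebpd and Atf3 each 0.24 and Maff 0.20, while Jund had -0.36 and Cebpb -0.46. Of 16 measured upstream regulators 0 passed an adjusted p of 0.05, and 0 had a positive and 4 a negative slope at an unadjusted p under 0.05, beside 2.27% and 2.72% of all genes. Their median r was -0.15, and 6 of the 16 had a positive r, beside 45.6% of all genes. Camk4, a calcium-dependent kinase that phosphorylates CREB, had r = -0.59 and Elk1, a partner of the serum response factor, -0.49, whereas Creb1 had 0.45, Rps6ka3 0.34, Map2k1 0.14 and Mef2c -0.07. None of these genes other than Btg2 passed an adjusted p of 0.05 with Fos.

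Outside these lists, genes were ranked by their likeness to the mean of the 10 standardized early gene profiles over 18 arrays. Only genes above the median level were taken, and predicted, olfactory receptor, microRNA and similar names were passed over. The 10 most alike were E4f1 at r = 0.64, Asb1 at 0.61, Gxylt1 and Ppfibp2 at 0.60, Rnf181 and Tra2a at 0.59, Bcl2, Stard13 and Cited2 at 0.58 and Entpd6 at 0.56. They ranked 24 to 110 among all genes. Of the 10 members, which are part of that mean, Fos, Fosb, Egr1, Nr4a1 and Dusp1 had a higher r with it (0.78 to 0.90), and Junb, Ier2, Arc, Egr2 and Npas4 a lower one (0.17 to 0.55). The ranges of these 10 genes ran from 0.29 log2 units for Rnf181 to 0.68 for Stard13, which lay between 7.38 and 8.06.

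The question set by the design was whether levels differed between mutant and wild type, and no early gene passed the threshold by either label. By title ending limma called 0 of 19937 genes (0%), with 923 (4.63%) at an unadjusted p under 0.05, and 1 of the 10 members among the latter. That member was Npas4, whose mean was 7.18 ± 0.22 (SD, n = 10) on ko arrays and 6.97 ± 0.18 (SD, n = 8) on wt arrays, which differ by 0.21 (SE 0.090, limma adjusted p = 0.884). Npas4 is a dim gene here, below the array median on 12 of the 18 arrays. Dusp1 was next in size at 0.15 (SE 0.13, adjusted p = 0.884), from 9.40 ± 0.31 (SD, n = 10) against 9.25 ± 0.29 (SD, n = 8). Fos differed by 0.073 (SE 0.14), Egr1 by 0.046 (SE 0.097), Nr4a1 by -0.042 (SE 0.12) and Junb by 0.095 (SE 0.083). Fosb, Egr2, Arc and Ier2 lay between -0.064 and 0.053, and 6 of the 10 members were higher with the ending ko, where 51.8% of all genes were. The Fos difference was 0.0001 without wt/WT 3 and -0.026 without both wt/WT 3 and ko/WT 4.

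By genotype field limma also called 0 genes (0%), with 1386 (6.95%) at an unadjusted p under 0.05. Npas4 was again the only such member, at 7.18 ± 0.24 (SD, n = 9) on KO arrays against 6.99 ± 0.17 (SD, n = 9) on WT arrays, higher by 0.20 (SE 0.090, limma adjusted p = 0.694). Ier2 and Arc were lower for KO by values of -0.098 (SE 0.069) and -0.094 (SE 0.058), and Fos differed by 0.070 (SE 0.14). Only Fos and Npas4 were higher for KO, 2 of the 10 members, where 47.2% of all genes were.

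Where both labels gave the same genotype, Npas4 was 7.61, 7.07, 7.25, 7.26 and 7.42 on ko/KO 1 to 5 and 7.0, 7.11, 6.63 and 6.97 on wt/WT 1 to 4. All ko/KO arrays other than ko/KO 2 lay above every wt/WT array, and ko/KO 2 lay below wt/WT 2. The difference was 0.39 (SE 0.12, n = 5 and 4, limma unadjusted p = 0.0047, adjusted p = 0.384), and 0.30 without wt/WT 3. Here 0 genes were called (0%) and 2218 (11.1%) had an unadjusted p under 0.05, with Npas4 the only member among them. Fos differed by 0.13 (SE 0.17), Dusp1 by 0.13 (SE 0.14), Arc by -0.12 (SE 0.099) and Nr4a1 by -0.12 (SE 0.15), and the Fos value was -0.042 without wt/WT 3.

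On the contradicting arrays Npas4 was 6.93, 6.98, 7.07, 7.26 and 6.92 on ko/WT 1 to 5 and 6.77, 7.01, 7.17 and 7.10 on wt/KO 1 to 4. These classes overlapped, and the difference was 0.020 (SE 0.094, limma adjusted p = 0.9998). Limma called 0 genes (0%), 546 (2.74%) had an unadjusted p under 0.05, and 0 members were among them. The mean was higher with the ending ko for 9 of the 10 members, where 53% of all genes were, and on the agreeing arrays for 5 of the 10, where 49.5% were. The largest differences were 0.18 for Dusp1 (SE 0.19) and 0.15 for Ier2 (SE 0.095). The agreeing and contradicting arrays are both part of the comparison by title ending. The interaction of ending and field, which tests whether the first depends on the second, called 0 genes (0%) with limma, with 1033 (5.18%) at an unadjusted p under 0.05 and 0 members among them. Its estimate was above 0 for all 10 members, where 46.7% of all genes were, and members that correlate do not count separately here. It was 0.21 for Npas4 (SE 0.16, limma adjusted p = 0.933) and 0.26 for Fosb (SE 0.13, adjusted p = 0.927).

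**Figure D4:**
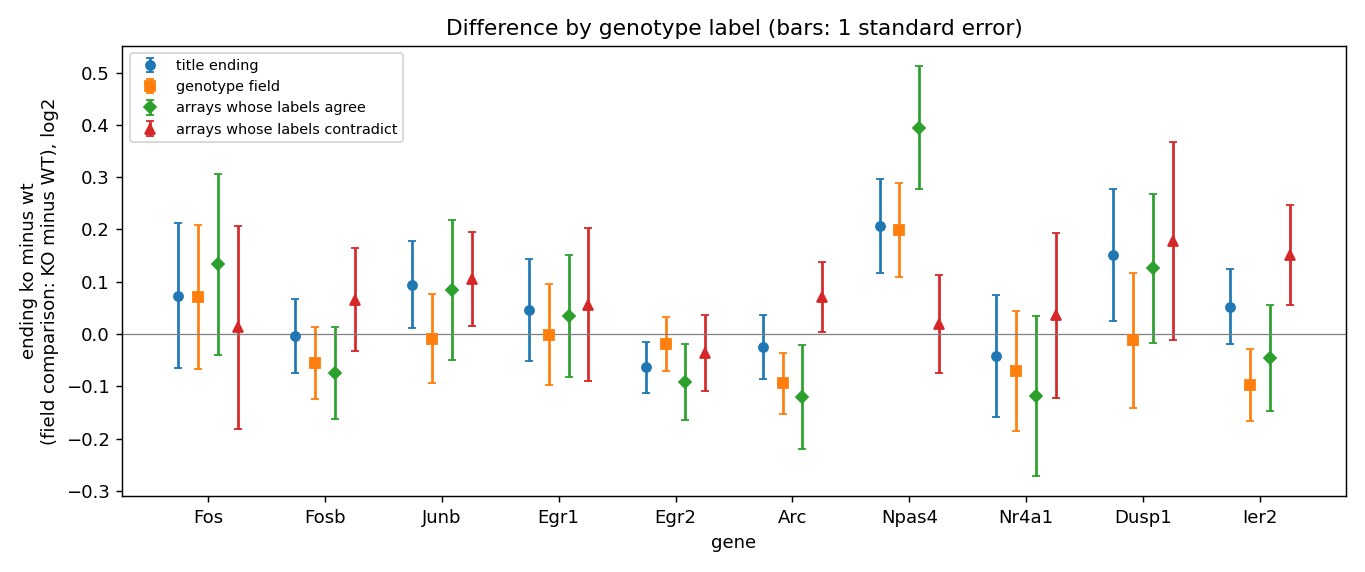
Log2 difference of each gene (y axis) by title ending (10 and 8 arrays), genotype field (9 and 9), on arrays whose labels agree (5 and 4) and on those whose labels contradict (5 and 4); points are limma estimates and bars 1 standard error. Npas4 is at 0.39 where the labels agree and at 0.020 where they contradict, and no gene passes the adjusted threshold.

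The level of Wfs1 fell into separate clusters, with 10 arrays from 7.86 to 8.07 and 8 from 8.36 to 8.72, and each cluster held arrays of all 4 label classes. The high cluster held 3 ko/KO, 3 ko/WT, 1 wt/KO and 1 wt/WT array, and the low one 2, 2, 3 and 3. Wfs1 was higher by 0.18 with the ending ko (SE 0.12, limma adjusted p = 0.884). With field KO it was higher by 0.056 (SE 0.13, limma adjusted p = 0.908). Arrays split by a measured value are no groups of the study, so the early genes on either side of 8.2 log2 are given without a test. Fos ran from 7.27 to 8.22 with a median of 7.84 on the 10 arrays of low Wfs1, and from 7.37 to 8.31 with a median of 8.04 on the 8 of high Wfs1. Egr1 had medians of 7.65 and 7.83, Nr4a1 of 8.29 and 8.54 and Dusp1 of 9.30 and 9.54. In these 4 genes the sides overlapped, with 2, 2, 3 and 4 of the 8 arrays of high Wfs1 above all 10 of low Wfs1. The medians of the remaining 6 genes differed by 0.080 or less in size, from -0.065 for Egr2 to 0.080 for Npas4.

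Within each side no relation of an early gene to Wfs1 passed an adjusted p of 0.05. Among the 10 arrays of low Wfs1, r with the Wfs1 level lay between -0.10 for Npas4 and 0.26 for Egr1, with permutation p from 0.461 to 0.978. Among the 8 of high Wfs1 it lay between 0.02 for Nr4a1 and 0.78 for Fosb, whose rho was 0.85 (exact permutation p = 0.0296 for r and 0.0114 for rho, adjusted over the 20 relations 0.591 and 0.228). Without the 2 farthest arrays the Fosb value was 0.68, and those of Junb and Arc, 0.39 and 0.11 on all 8 arrays, were 0.77 and 0.73 on the remaining 6. The mutual correlation of Fos, Egr1, Nr4a1 and Dusp1 was as close on either side, at 0.81 to 0.94 with low and 0.83 to 0.92 with high Wfs1.

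**Figure D5:**
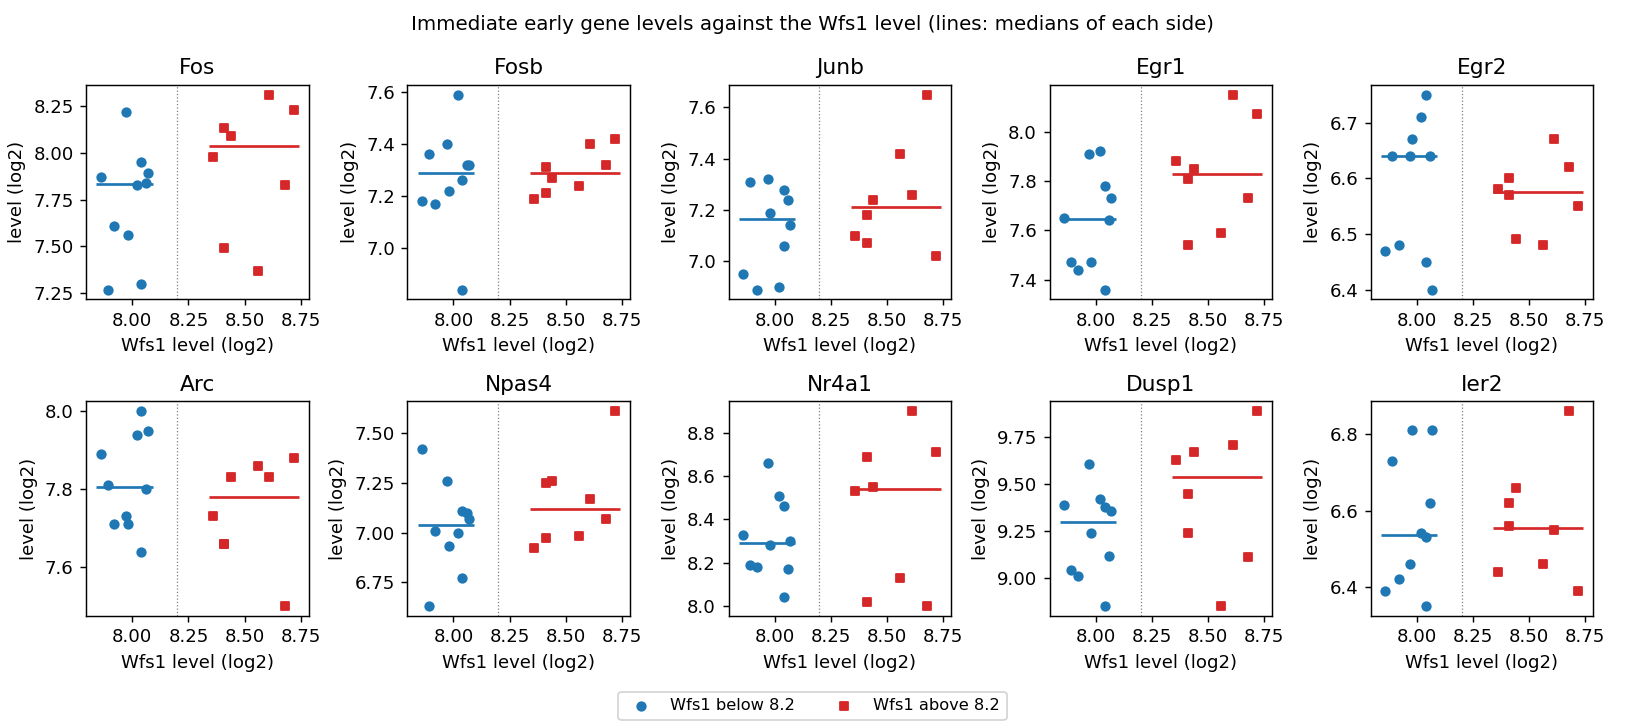
Level of each immediate early gene (y axes, log2) against the Wfs1 level (x axes, log2), 1 point per array, with the split at 8.2 as a dotted line and the median of each side as a bar. The sides overlap for all 10 genes, and the medians of Fos, Egr1, Nr4a1 and Dusp1 are 0.20, 0.19, 0.25 and 0.24 higher at high Wfs1.

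The first number in the sample title, which runs from 1 to 20 and whose meaning is not given, was set against the early genes as a possible order of handling. The correlation was -0.41 for Dusp1 (rho = -0.42, permutation p = 0.0879 and 0.0812, adjusted over the 10 genes 0.46 and 0.445), -0.33 for Egr1 and Nr4a1 and -0.27 for Fos. For 9 of the 10 genes r was below 0, and 0 passed the threshold. Without the 2 farthest arrays the Dusp1 value was -0.53. These numbers belong to the titles and share their doubt. The other title number, just before the ending, was not tested, and its low and high blocks match the endings ko and wt.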

How the data were processed

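The authors deposited 1 log2 expression value for each probeset on each array, a scale inferred from their range of 1.11 to 14.54. RMA and MAS5 are named in the submitters' processing notes, without saying what each was used for, and scanner files were not analysed here. Of 34760 probesets, the platform annotation paired 21640 with 1 symbol and 1321 with several, and gave none for 11799. Probesets with 1 symbol were kept, and 21553 of their identifiers matched RefSeq, which changed 0 symbols. The brightest probeset per gene left 19937 genes. RMA, where used, sets arrays on a near-common distribution and compresses small differences at low intensity.

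Differences and fits on a gene's level used limma 3.58.1 (lmFit, eBayes, R 4.3.3) over all genes, with Benjamini-Hochberg adjustment and a threshold of 0.05. They were also run on simulated data in which genes varied independently, apart from the relations put in. Those runs therefore do not cover sets of genes that vary together, as with the Junb and Ier2 counts. Correlations used two-sided permutation tests (Python 3.11.15, numpy 2.4.6), exact for 8 arrays. Marker and gene lists were written down as lists of symbols, and the genes named from each are the 4 with the highest and the 2 with the lowest mean r with the 10 members, plus the 10 unlisted genes most like their mean. The unlisted genes were taken above the median level, passing over predicted, olfactory receptor, microRNA and similar names. The members, lists and tests were chosen with earlier results of these data known. Pearson r over pairs assumed no separate clusters: the largest gap in any member, with at least 3 arrays on each side, was at most 0.212 of its range. The number of arrays limits the precision.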

Additional observations from a re-analysis of the deposited data

Results flagged for a closer look

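Within label classes, 3 of 40 sets of 4 or 5 values (10 genes in 4 classes) had an array far from the others by Dixon's criterion, which chance meets in about 1 of 20 sets. Nr4a1 was 8.90 on wt/KO 3, against 8.04 to 8.18 on the other 3 wt/KO arrays. Dusp1 was 9.04 on wt/WT 3, against 9.38 to 9.45 on the other 3 wt/WT arrays. Ier2 was 6.73 on wt/WT 3, against 6.53 to 6.56. The array wt/WT 3 is the one with Ttr at 12.80, and it also had the lowest Fos and Npas4 of the 18. Their causes were not tested.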

How the results depend on the processing

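The counts of genes called by the 4 comparisons and by the interaction of the labels stayed at 0 under the mean of probesets, quantile normalization, without the dimmest 40% of genes and without any 1 array, with a lowest adjusted p of 0.111. Leaving out the dimmest genes removed Npas4, Egr2 and Ier2. No paired analysis was possible because the titles give no number that the groups share. The 6 correlations among Fos, Egr1, Nr4a1 and Dusp1 kept their side of the threshold in every alternative run, from 0.81 to 0.92 without 1 array. The median r over 45 pairs was 0.28, and ran from 0.18 to 0.33 without 1 array. It was 0.34 after subtracting the label class means and 0.34 without both wt/WT 3 and ko/WT 4, the last chosen after seeing the data. Differences by label near 0 changed sign when 1 array was left out, and the cause was not tested. By title ending these were Fosb from -0.067 to 0.040, Egr1 from -0.0023 to 0.11, Arc from -0.047 to 0.0057 and Nr4a1 from -0.092 to 0.031. By genotype field these were Junb from -0.068 to 0.027, Egr1 from -0.055 to 0.044, Egr2 from -0.042 to 0.0014 and Dusp1 from -0.083 to 0.047. Where the labels agree these were Fos from -0.042 to 0.24, Junb from -0.022 to 0.15, Egr1 from -0.057 to 0.095 and Ier2 from -0.12 to 0.0007. Where they contradict these were Fos from -0.14 to 0.19, Fosb from -0.049 to 0.14, Egr1 from -0.039 to 0.22, Egr2 from -0.073 to 0.0007, Npas4 from -0.061 to 0.072 and Nr4a1 from -0.059 to 0.23. Quantile normalization gave 0.012 for Junb, 3.1e-05 for Egr1 and 0.011 for Egr2 by field, 0.013 for Ier2 where the labels agree and -0.0037 for Fos where they contradict. Without both wt/WT 3 and ko/WT 4, Fos was -0.026 and Fosb 0.0078 by ending and Junb 0.017 by field. Where the labels agree Fos was then -0.042, Egr1 -0.057 and Ier2 0.0007. Where they contradict Fos was -0.065, Npas4 -0.038 and Nr4a1 -0.0125.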
